A study of Homo sapiens with 8 samples.

Results

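The 37 genes described here are named after factors that start protein synthesis on cytosolic ribosomes, although some, such as EIF4A3 and EIF4EBP2, act otherwise. They were chosen by gene symbol. They comprise 4 genes of the eIF1 and eIF1A group, 4 of the eIF2 and initiator tRNA delivery group, and 13 subunits of eIF3. The rest are 12 genes of the eIF4 group, and the 4 genes EIF5, EIF5A, EIF5B and EIF6. All 37 were found among the 58219 genes listed for each library, and all 37 passed the filter on low counts that left 13129 protein-coding genes for testing. EIF2S1, the gene of the eIF2 alpha subunit, is not one of the 37 and is given with the rest of the translation machinery.

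RNA-seq had been run on H929 and KMS11, established multiple myeloma cell lines that both carry the t(4;14) translocation. Each line had been kept for 24 h in ethanol, the solvent control, or in 2 µM fluvastatin, a statin that inhibits HMG-CoA reductase, the enzyme at the start of the mevalonate pathway. Each line and treatment had 2 biological replicates, 8 libraries in all. The comparisons ask how the mRNAs of the initiation factors changed with fluvastatin in these statin-sensitive lines, whether the lines responded alike, and how they differed before treatment.

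In initiation, the small ribosomal subunit loads eIF1, eIF1A, eIF3, eIF5 and a complex of eIF2, GTP and initiator methionyl-tRNA. The loaded subunit joins the mRNA at the cap, which eIF4E binds, with eIF4G as a scaffold and eIF4A as a helicase, and scans to the start codon. There eIF2 releases the initiator tRNA and eIF5B brings in the large subunit. Plasma cells and myeloma cells make immunoglobulin at a high rate and rely on this machinery.

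Total counts per library ranged from 26702515 to 41910446, with 85.2% to 91.4% of the counts on protein-coding genes. The plasma cell markers SDC1, TNFRSF17, IRF4, PRDM1, XBP1 and SLAMF7 were above 16.6 TPM (RSEM's transcript abundance, a level per transcript length) in every library, CD38 ranged from 0.01 to 26.9 TPM, and the translocation targets NSD2 and FGFR3 were at 83.6 to 141 TPM and 5.33 to 95.2 TPM. Of the markers of other cell types, CD14 was at 0, MS4A1 and COL1A1 were at most 0.06 TPM, and EPCAM reached 35.9 TPM and CD3E 3.54 TPM. The part of those last genes in the results was not tested. The KMS11 fluvastatin replicates differed most, with an SD of the log2 ratio over genes of 0.252, against 0.126 to 0.182 in the other groups.

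The initiation factors held 1.37% and 1.44% of the protein-coding counts in the H929 ethanol libraries, and 1.19% and 1.22% in fluvastatin. In KMS11 their share was 1.41% in both ethanol libraries, and 1.28% and 1.3% in fluvastatin. The fluvastatin share was thus below the ethanol share in each line, with no overlap. In such bulk RNA, fewer cells with the transcript and less of it per cell cannot be told apart. Per transcript length, EIF4A1, the main eIF4A helicase, had the highest mean level in H929 in ethanol, at 546.0 ± 12.0 TPM (SD, n = 2), and EIF5A was next, at 305 ± 12.9 TPM. In KMS11, EIF5, the factor that triggers GTP hydrolysis by eIF2, was highest at 353 ± 3.48 TPM, and EIF3L and EIF3K, subunits of eIF3, followed at 288 ± 7.13 and 287 ± 5.71 TPM, a difference smaller than their SDs. EIF4E3, a cap-binding relative of eIF4E, was the lowest of the 37 in both lines, at 1.73 ± 0.163 TPM in H929 and 6.30 ± 0.120 TPM in KMS11. The median over the 37 was 84.0 TPM in H929 and 123 TPM in KMS11. On log2(TPM + 1), however, the median difference over all genes tested was also above 0, at 0.46 (KMS11 minus H929). On TMM-scaled counts the median log2 difference of the 37 was 0.05.

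**Figure D1:**
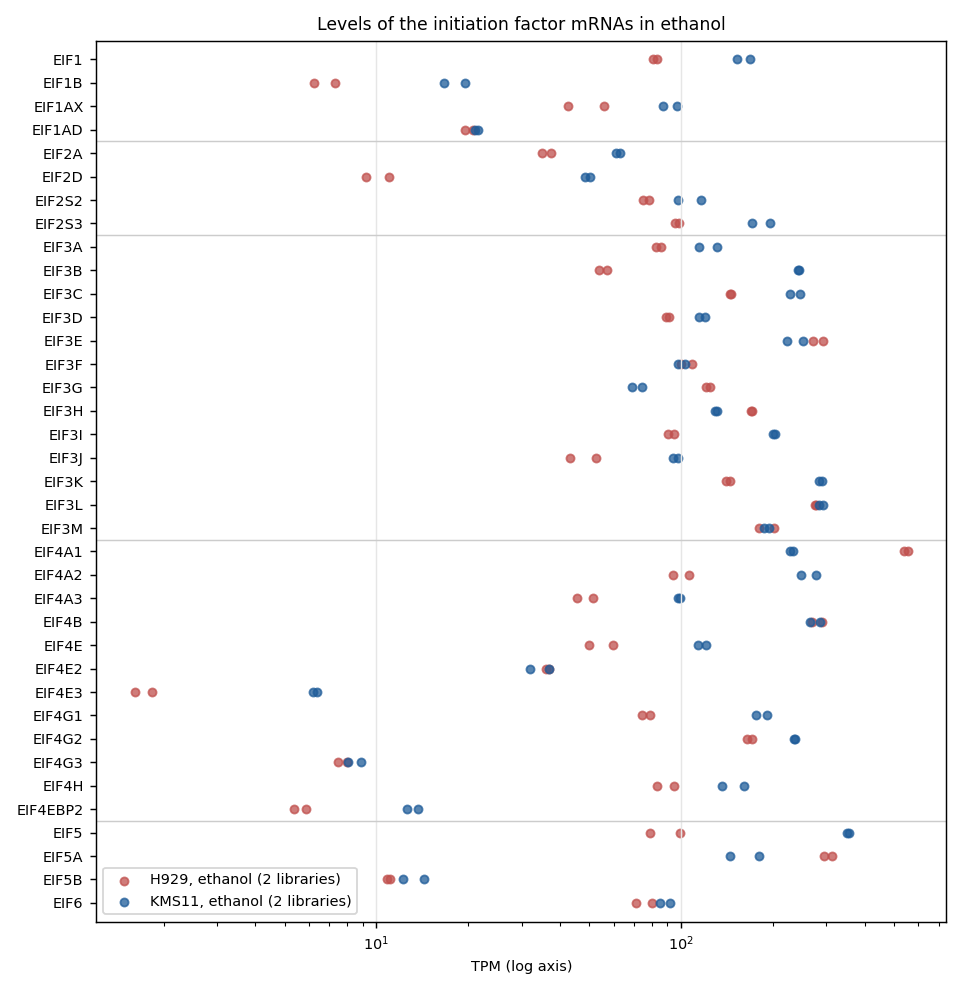
Level of each of the 37 initiation factor mRNAs in TPM (log axis) in the 2 ethanol libraries of H929 (red) and of KMS11 (blue), with lines between the factor groups. EIF4A1 lies highest in H929 and EIF5 in KMS11, and EIF4E3 lies lowest in both.

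Across both lines, with the line as a term in the fit, fluvastatin raised EIF1 and lowered EIF3B, EIF3I, EIF4A1, EIF4A3 and EIF5B. The other 31 genes did not pass an adjusted p of 0.05 in edgeR's quasi-likelihood test. The median log2 fold change of the 37 was -0.18, beside 0.03 over all genes tested, and 31 of the 37 estimates were below 0. The 1 gene called higher and the 5 called lower stand beside 6.5% of all genes tested called higher and 3.93% called lower. With a further term for replicate number within each line, edgeR called none of the 37, and 143 of all genes higher and 15 lower. DESeq2 called 1 higher and 10 lower, where it called 1322 of 13129 genes higher and 1234 (9.4%) lower.

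These 6 calls rested on the full set of H929 libraries. Leaving out 1 of these also made calls over all genes tested much fewer. Without any 1 of the 4 H929 libraries, none of the 37 passed in edgeR, while the median log2 fold change stayed between -0.18 and -0.17. Without any 1 KMS11 library, 5 to 9 passed.

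In single libraries, counts are given as CPM, the count relative to the TMM-scaled library size, first for replicate 1 and then for replicate 2. EIF1 (ENSG00000173812.10, GRCh38 chr17:41688885-41692668), which keeps the scanning ribosome open until a start codon is met, stood at 149.8 and 147 CPM in H929 in ethanol and at 275 and 273 CPM in fluvastatin. In KMS11 it stood at 198 and 197 CPM in ethanol and at 249 and 249.9 CPM in fluvastatin. Both treated pairs lay above their controls, and the log2 fold change across the lines was 0.61 ± 0.11 (SE, edgeR adjusted p = 0.019). EIF1 was the 1 gene of the 37 that was higher without overlap of the libraries in both lines, where 12.6% of all genes tested were.

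EIF3B (ENSG00000106263.17, chr7:2354086-2380745), a core subunit of eIF3, stood at 227 and 237 CPM in H929 in ethanol and at 122 and 126 CPM in fluvastatin, and at 564 and 601 CPM against 497 and 496 CPM in KMS11. Its libraries did not overlap in either line, and it fell by 0.57 ± 0.13 on the log2 scale (edgeR adjusted p = 0.034). EIF3I (ENSG00000084623.11, chr1:32221077-32245397), another subunit of eIF3, was at 237 CPM in both H929 ethanol libraries and at 157 CPM in both fluvastatin libraries. In KMS11 it was at 353 and 384 CPM in ethanol and at 319.7 and 304 CPM in fluvastatin. EIF3I fell by 0.42 ± 0.09 (log2, edgeR adjusted p = 0.030), again without overlap in both lines.

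EIF4A1 (ENSG00000161960.14, chr17:7572824-7579006) stood at 1490.2 and 1573 CPM in H929 in ethanol and at 986 and 978 CPM in fluvastatin, and in KMS11 at 443 and 480.1 CPM against 377 and 378 CPM. It fell by 0.47 ± 0.09 on the log2 scale (edgeR adjusted p = 0.020). EIF4A3 (ENSG00000141543.9, chr17:80134369-80147151), which shares the helicase fold of eIF4A but acts in the exon junction complex, fell by 0.47 ± 0.09 as well (edgeR adjusted p = 0.020). Its counts were 142 and 159.8 CPM against 97.4 and 99.5 CPM in H929, and 203 and 218 CPM against 166 and 171 CPM in KMS11. EIF5B (ENSG00000158417.10, chr2:99337371-99401326), the GTPase that joins the subunits, was at 99.4 and 106 CPM against 70.8 and 79.3 CPM in H929, and at 94.4 and 85.8 CPM against 69.6 and 74.0 CPM in KMS11, and fell by 0.39 ± 0.08 (log2, edgeR adjusted p = 0.028). All 3 genes were lower in every treated library than in every control of the same line. Pseudogenes and the read-through gene SENP3-EIF4A1 took 0.974% to 1.29% of the counts of EIF4A1 and these copies.

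**Figure D2:**
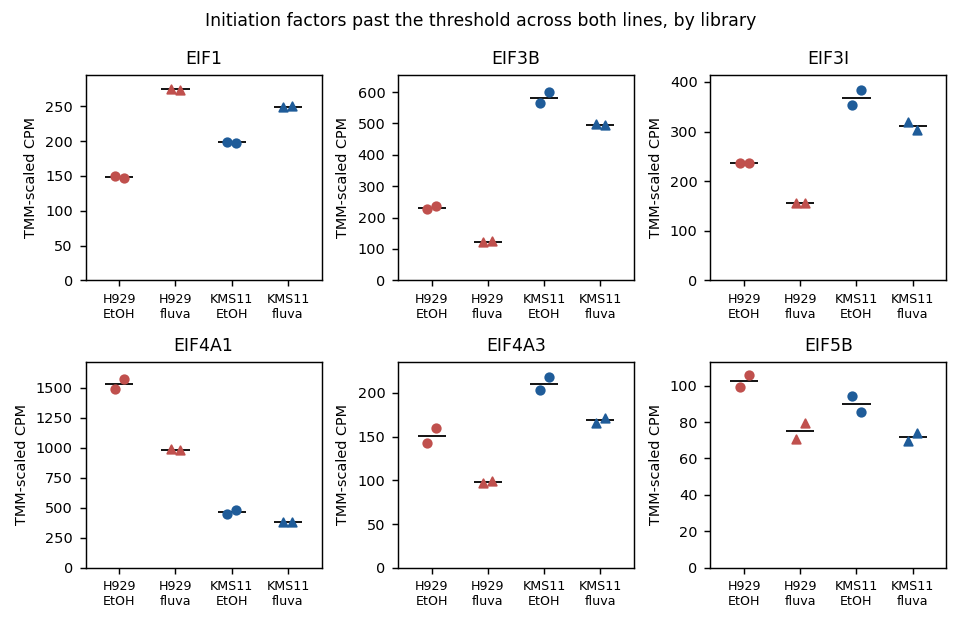
TMM-scaled CPM (linear axes from 0) in each of the 8 libraries for the 6 initiation factors past the threshold across both lines; circles are ethanol, triangles fluvastatin, and bars the mean of 2 libraries. EIF1 rises in both lines, from 147 to 149.8 up to 273 to 275 in H929, and the other genes fall, EIF3B further in H929 than in KMS11.

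Lower libraries without overlap were counted for all 37 genes. In H929, 23 of the 37 were lower in both fluvastatin libraries than in both ethanol libraries, where 33.5% of all genes tested were. In KMS11 the count was 25 of 37, where 26.5% of all genes were, and in both lines at once it was 16 of 37, where 12.3% of all genes were. Those 16 were EIF1AX, EIF2S3, EIF3B, EIF3D, EIF3I, EIF3J, EIF3M, EIF4A1, EIF4A2, EIF4A3, EIF4B, EIF4E, EIF4G3, EIF4H, EIF5 and EIF5B. They came from each group of factors, but the eIF1 and eIF1A group entered only with EIF1AX and the eIF2 group only with EIF2S3. The H929 libraries of EIF2S3 nearly touched, at 518.35 CPM in ethanol replicate 1 and 518.2 CPM in fluvastatin replicate 2.

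The stretch of DNA just before a transcript start is shown for EIF1, the gene that rose, and for EIF3B, EIF4A1 and EIF4A3. The latter are the 3 of the 5 falling genes with the largest change. EIF1 and these 3 are shown since they moved with the same treatment in opposite directions. Each line gives the 150 bases before the RefSeq transcript start in GRCh38.p14, 5′ to 3′ on the strand of the gene. This start can differ from the edge of the gene span given above. The EIF3B stretch lies inside the span of EIF3B, and those of EIF4A1 and EIF4A3 overlap the edge of theirs. Capitals mark matches on either strand to GGGCGG (the GC box), CACGTG (an E-box), CCGGAAG (an ETS motif) or the CCAAT box. The EIF1 stretch is chr17:41688735-41688884 (plus strand), that of EIF3B chr7:2354677-2354826 (plus), that of EIF4A1 chr17:7572675-7572824 (plus, within an exon of the read-through gene SENP3-EIF4A1) and that of EIF4A3 chr17:80147129-80147278 (minus).
EIF1: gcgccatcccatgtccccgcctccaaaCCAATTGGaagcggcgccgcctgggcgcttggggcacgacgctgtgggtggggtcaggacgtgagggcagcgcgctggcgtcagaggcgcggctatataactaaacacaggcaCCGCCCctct
EIF3B: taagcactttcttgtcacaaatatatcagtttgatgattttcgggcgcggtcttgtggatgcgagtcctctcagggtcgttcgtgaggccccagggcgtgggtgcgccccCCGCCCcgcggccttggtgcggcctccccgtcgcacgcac
EIF4A1: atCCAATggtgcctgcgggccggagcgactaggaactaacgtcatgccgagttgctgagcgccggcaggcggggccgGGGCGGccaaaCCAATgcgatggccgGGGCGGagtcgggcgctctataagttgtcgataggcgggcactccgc
EIF4A3: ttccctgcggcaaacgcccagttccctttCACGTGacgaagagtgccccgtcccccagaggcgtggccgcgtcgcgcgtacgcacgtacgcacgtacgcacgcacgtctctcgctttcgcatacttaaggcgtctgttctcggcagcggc

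The EIF1 stretch held 1 GC box and 2 overlapping CCAAT matches on opposite strands, EIF3B 1 GC box, EIF4A1 2 GC boxes and 2 CCAAT boxes, and EIF4A3 1 E-box. RefSeq windows of 250 bases before and 50 after the start were at hand for 31 of the 37 genes. In them, CACGTG was found in 8 of the 31 (25.8%) and in 8.77% of the 27305 genes with RefSeq windows. A gene counted if any of its windows matched, and the 27305 were not limited to protein-coding or tested genes. The GC box was found in 23 (74.2%, all genes 48.3%), CCAAT in 14 (45.2%, all genes 39.7%) and CCGGAAG in 8 (25.8%, all genes 12.2%). The cyclic AMP response element TGACGTCA was in 0 of the 31 (all genes 2.25%), and TGATGNAA, the C/EBP-ATF composite site, in 1, EIF4E3 (all genes 4.46%). Both strands were searched, and a match describes letters only.

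Within H929, 2 genes rose and 16 fell, beside 22.7% of all genes tested called higher and 19.3% called lower. The median log2 fold change of the 37 was -0.23, beside 0.02 over all genes tested. Within KMS11, none passed in edgeR, beside 2.58% of all genes called higher and 0.533% called lower, but 32 of the 37 estimates were below 0 and their median was -0.17, beside 0.00 over all genes. At an unadjusted p under 0.05, 14 of the 37 were counted in KMS11, and the share of all genes at that threshold was not counted. DESeq2 called 1 higher and 5 lower there, where it called 657 of 13129 genes higher and 269 (2.05%) lower. With a further term for replicate number, edgeR called 1 higher and 9 lower in KMS11, and 1161 and 476 of all genes. Without the KMS11 fluvastatin replicate 2, edgeR called 7 lower in KMS11 (EIF1AX, EIF3E, EIF3J, EIF3M, EIF4A2, EIF4A3 and EIF5B), where 4.84% of all genes were called lower.

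**Figure D3:**
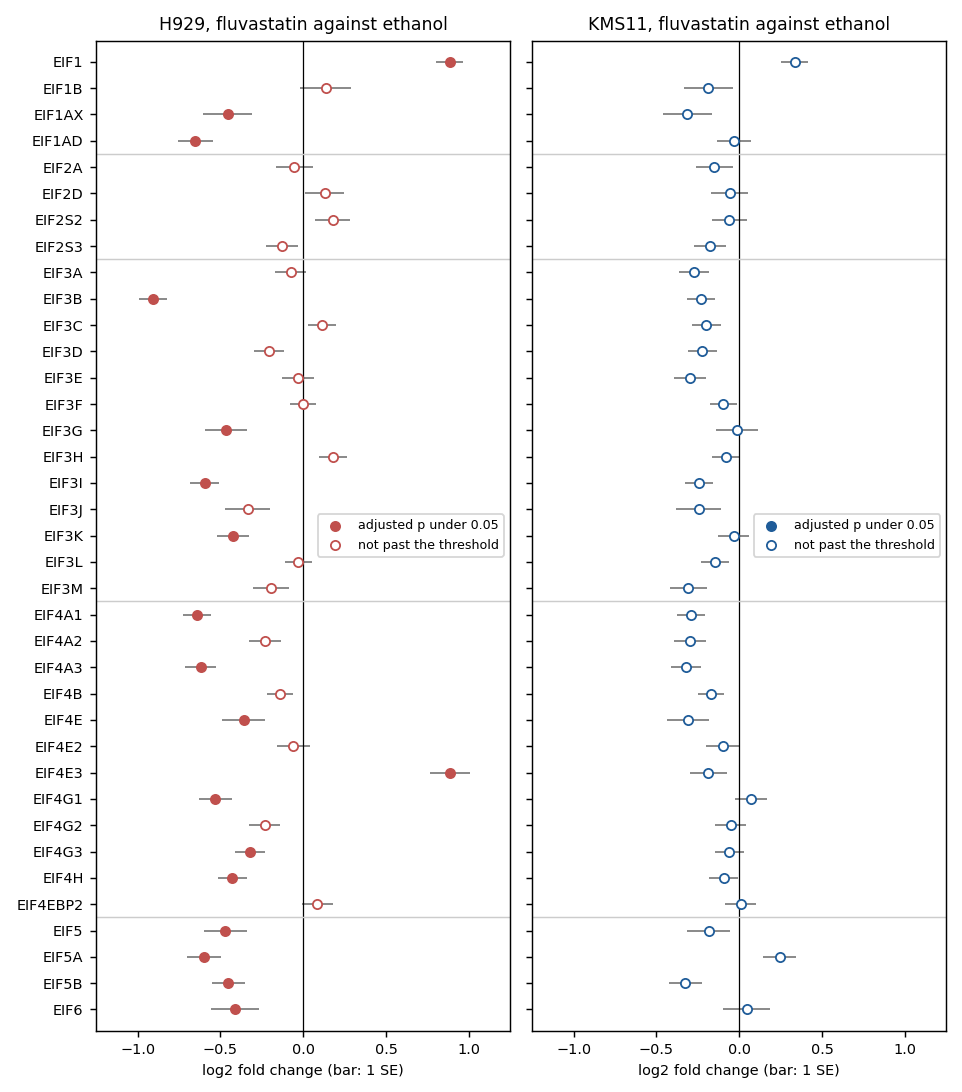
Log2 fold change, fluvastatin against ethanol, of each of the 37 initiation factors in H929 (left) and KMS11 (right), with bars of 1 SE from the edgeR fit of 4 groups with 2 libraries each; filled points passed an adjusted p of 0.05. Most points lie left of 0 in both lines, with EIF1 to the right in both and EIF4E3 to the right in H929.

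GC content moved with the responses. Over the 37 genes, the log2 fold change had a Pearson correlation with the GC content of the transcripts of -0.38 in H929 and 0.52 in KMS11. These are descriptions over genes of the same libraries. With a smooth GC trend removed from each library, 22 of the 37 were called across both lines, 1 higher and 21 lower. Of the 13129 genes tested, 1468 were called higher and 1703 (13.0%) lower. In KMS11 alone 13 of the 37 were called, EIF1 higher (0.35) and 12 lower, beside 842 of all genes higher and 738 (5.62%) lower. Those 12 were EIF3A, EIF3B, EIF3D, EIF3E, EIF3G, EIF3I, EIF3M, EIF4A1, EIF4A2, EIF4A3, EIF5B and EIF6. In H929 the count was 28, with 2 higher and 26 lower, beside 3497 of all genes higher and 3752 (28.6%) lower.

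**Figure D4:**
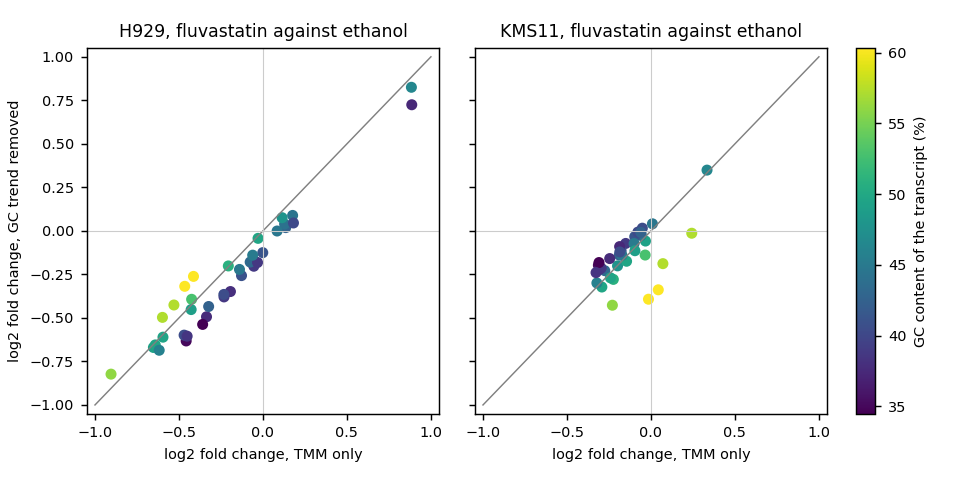
Log2 fold change of the 37 initiation factors with TMM scaling only (horizontal) and with the GC trend of each library removed (vertical), in H929 (left) and KMS11 (right), coloured by GC content; the line marks equal values. Genes of the highest GC content lie above the line in H929 and below it in KMS11, and EIF1 stays above 0 in both panels.

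Of the eIF1 and eIF1A group, EIF1 rose in H929 and EIF1AX and EIF1AD fell there, while EIF1B, the close relative of EIF1, stood at 12.5 and 10.9 CPM in ethanol and 11.5 and 14.3 CPM in fluvastatin, with overlap. The rise of EIF1 was 0.88 ± 0.08 in H929 (log2, edgeR adjusted p = 3.5e-05) and 0.33 ± 0.08 in KMS11 (edgeR adjusted p = 0.056). EIF1AD, named for its eIF1A-like domain, stood at 53.2 and 54.5 CPM in H929 in ethanol and at 36.0 and 32.5 CPM in fluvastatin, and fell by 0.65 ± 0.10 (edgeR adjusted p = 0.00085). In KMS11 it overlapped, at 45.0 and 49.4 CPM against 47.3 and 45.0 CPM. EIF1AX, the X-linked gene of eIF1A, which acts with eIF1 in scanning, was at 258 and 329 CPM against 192 and 235 CPM in H929, and fell by 0.46 ± 0.15 (edgeR adjusted p = 0.032). This call was lost without H929 ethanol replicate 2 (log2 -0.27, edgeR adjusted p = 0.23) or fluvastatin replicate 1 (-0.32, edgeR adjusted p = 0.18).

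None of the 4 genes of the eIF2 and initiator tRNA delivery group passed in either line in edgeR or DESeq2, and in edgeR 0 of the 4 had an unadjusted p under 0.05 in H929 or in KMS11. EIF2S2, the beta subunit of eIF2, stood at 395 and 421 CPM in H929 in ethanol and at 435 and 487 CPM in fluvastatin. EIF2S3, the gamma subunit, which binds GTP and the initiator tRNA, stood at 518 and 548 CPM against 458 and 518 CPM. EIF2A, a separate protein that is not the alpha subunit, and EIF2D, which handles tRNA on the small subunit, had log2 fold changes of -0.05 ± 0.11 and 0.13 ± 0.12 in H929, and -0.15 ± 0.11 and -0.06 ± 0.11 in KMS11.

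The complex eIF3 is the scaffold that holds the small subunit and the other factors together. Among its 13 subunits, EIF3B, EIF3G, EIF3I and EIF3K fell in H929 and the other 9 did not pass. These 4 of 13 stand beside 19.3% of all genes tested called lower in H929. EIF3B fell by 0.90 ± 0.08 (log2, edgeR adjusted p = 4.2e-05), which was the largest change among the 13. EIF3I fell by 0.60 ± 0.09 (edgeR adjusted p = 0.00048). Both EIF3G and EIF3I are known to bind EIF3B. EIF3G stood at 216 and 207 CPM in ethanol and at 164 and 142 CPM in fluvastatin, and fell by 0.47 ± 0.13 (edgeR adjusted p = 0.014). EIF3K, a subunit of the eIF3 core, stood at 199 and 200.3 CPM against 150.4 and 147 CPM, and fell by 0.42 ± 0.10 (edgeR adjusted p = 0.0056). The treated libraries lay below the controls for all 4. The EIF3G call was lost without H929 ethanol replicate 1 (log2 -0.44, edgeR adjusted p = 0.064) or fluvastatin replicate 2 (-0.37, edgeR adjusted p = 0.10), and with GC and length trends removed the value was -0.21 for EIF3G and -0.23 for EIF3K.

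Of the other 9, EIF3C and EIF3H had estimates above 0 in H929, at 0.11 ± 0.09 and 0.18 ± 0.08, and the rest lay between -0.34 and -0.00. EIF3E, a core subunit, stood in H929 at 272 and 291 TPM in ethanol and at 261 and 287 TPM in fluvastatin, with overlap. The ratio of EIF3E to EIF3B in TPM was 5.06 and 5.10 in H929 ethanol and 9.02 and 8.83 in fluvastatin, while in KMS11 it was 1.03 and 0.914 against 1.01 and 1.04. The ratio was thus higher in both treated H929 libraries and overlapped between treatments in KMS11. In KMS11, all 13 estimates were below 0, with a median of -0.22 and a range from -0.31 to -0.01. Counts of EIF3C are uncertain, since its near-identical copy EIF3CL took 1.78% to 13.1% of the counts of both.

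In the eIF4 group, H929 showed 1 rise and 6 falls among 12 genes, beside the 22.7% higher and 19.3% lower of all genes tested. EIF4E3 stood at 12.8 and 13.9 CPM in ethanol and at 23.9 and 25.4 CPM in fluvastatin, a rise of 0.89 ± 0.12 (log2, edgeR adjusted p = 0.00031). EIF4E, the main cap-binding protein, stood at 153 and 192 CPM against 123 and 146 CPM, and fell by 0.36 ± 0.13 (edgeR adjusted p = 0.048). Without H929 ethanol replicate 2 the EIF4E value was -0.18 (edgeR adjusted p = 0.35) and without fluvastatin replicate 1 it was -0.24 (0.26), and the call was also lost without either KMS11 ethanol library (0.069 for both) and with median-of-ratios scaling (0.062). The ratio of EIF4E to EIF4E3 in TPM went from 31.0 and 32.5 to 11.3 and 12.3. EIF4E2, a cap-binding repressor, overlapped between treatments, at 92.2 and 94.7 CPM against 83.7 and 95.4 CPM. Counts on EIF4E pseudogenes came to 6.39% to 7.45% of those on EIF4E and these copies together.

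Of the scaffolds, EIF4G1 stood at 594 and 567 CPM in H929 in ethanol and at 409 and 395 CPM in fluvastatin, and fell by 0.53 ± 0.10 (edgeR adjusted p = 0.0021). EIF4G3, its paralog, fell by 0.32 ± 0.09 (edgeR adjusted p = 0.016), a call lost without H929 ethanol replicate 1 (-0.27), fluvastatin replicate 1 (-0.36) or fluvastatin replicate 2 (-0.29). EIF4G2, which lacks the eIF4E-binding part, stood at 1099 and 1192 CPM against 940.2 and 1009 CPM, without overlap and with an edgeR adjusted p of 0.073.

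Of the helicases and their partners, EIF4A1, EIF4A3 and EIF4H fell in H929. EIF4A1 fell by 0.64 ± 0.08 and EIF4A3 by 0.62 ± 0.09 in H929 (log2, edgeR adjusted p = 0.00030 and 0.00062). EIF4A2, the paralog of EIF4A1, was at 335 and 384 CPM against 298 and 314 CPM (log2 -0.23 ± 0.10, edgeR adjusted p = 0.080). EIF4H, which stimulates eIF4A, stood at 404 and 429 CPM against 306 and 314 CPM, and fell by 0.43 ± 0.09 (edgeR adjusted p = 0.0030). EIF4B, the other stimulator, was at 1723 and 1729.5 CPM against 1542 and 1592 CPM, with an edgeR adjusted p of 0.19. EIF4EBP2, a small protein that holds eIF4E back, overlapped, at 88.3 and 82.1 CPM against 85.5 and 95.3 CPM. In KMS11 the 3 eIF4A genes had like estimates, -0.29 ± 0.08, -0.30 ± 0.10 and -0.32 ± 0.09 for EIF4A1, EIF4A2 and EIF4A3, with edgeR adjusted p values from 0.094 to 0.12.

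All 4 genes of the last group fell in H929, beside 19.3% of all genes tested called lower. EIF5A, the hypusine-bearing factor that relieves stalled ribosomes, stood at 652 and 684 CPM in ethanol and at 433 and 449 CPM in fluvastatin, and fell by 0.60 ± 0.10 (edgeR adjusted p = 0.0012). EIF5 stood at 304 and 394 CPM against 237 and 267 CPM, and fell by 0.47 ± 0.13 (edgeR adjusted p = 0.017). Without H929 ethanol replicate 2 the EIF5 value was -0.27 (edgeR adjusted p = 0.16) and without fluvastatin replicate 1 it was -0.39 (0.098). The other two were EIF5B (log2 -0.45 ± 0.10, edgeR adjusted p = 0.0051) and EIF6, which keeps the subunits apart, at 150.4 and 137 CPM against 114 and 102 CPM (log2 -0.41 ± 0.14, edgeR adjusted p = 0.043). The EIF6 call was lost without any 1 of the 4 H929 libraries (edgeR adjusted p from 0.057 to 0.20) and with library size scaling (0.052), and its value was -0.26 with the GC trend removed and -0.18 with both trends removed. None of the 4 overlapped. EIF1 and EIF5, which are known to oppose each other in the choice of start codons, moved apart in H929. Their ratio in TPM was 1.06 and 0.811 in H929 ethanol and 2.68 and 2.39 in fluvastatin, and 0.479 and 0.430 against 0.669 and 0.612 in KMS11.

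**Figure D5:**
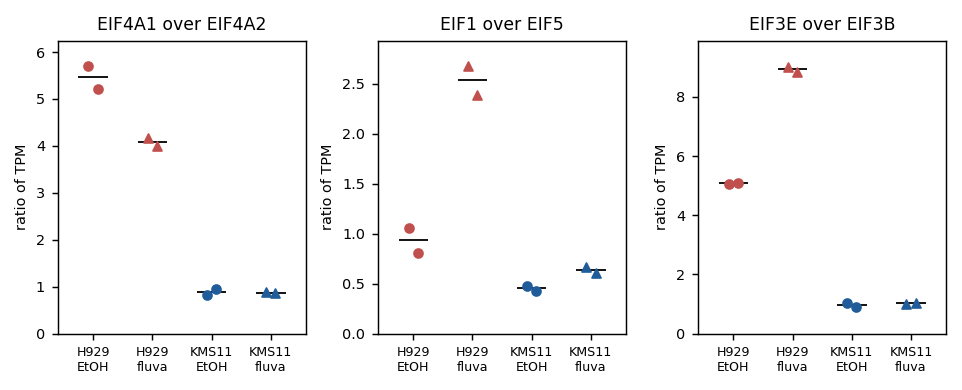
Ratios of TPM (linear axes from 0) of EIF4A1 over EIF4A2, EIF1 over EIF5 and EIF3E over EIF3B in each library; circles are ethanol, triangles fluvastatin, and bars the mean of 2 libraries. EIF4A1 over EIF4A2 falls from 5.22 and 5.70 to 4.00 and 4.16 in H929 and is under 1 in KMS11, and EIF1 over EIF5 rises in both lines.

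Whether the lines responded unequally was tested directly, as the KMS11 response minus that of H929. The difference was positive for EIF1AD, EIF3B, EIF4G1 and EIF5A and negative for EIF1 and EIF4E3, that is 4 and 2 of the 37, beside 11.7% and 11.5% of all genes tested. EIF5A fell in H929 but in KMS11 stood at 210.2 and 212 CPM in ethanol and at 273 and 226 CPM in fluvastatin. The difference for EIF5A was 0.84 ± 0.14 (log2, edgeR adjusted p = 0.0036). EIF4E3 rose in H929 but in KMS11 stood at 34.9 and 37.1 CPM against 30.7 and 32.5 CPM, and its difference was -1.07 ± 0.16 (edgeR adjusted p = 0.0021). EIF5A was the 1 gene of the 37 that separated without overlap downward in H929 and upward in KMS11, as 6.06% of all genes did. EIF4E3, EIF3C and EIF3H did the opposite, as 6.89% of all genes did, and the EIF3C and EIF3H differences of -0.31 ± 0.12 and -0.26 ± 0.12 did not pass (edgeR adjusted p = 0.087 and 0.14).

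EIF1 rose less in KMS11 (difference -0.55 ± 0.11, edgeR adjusted p = 0.0082). For EIF3B, the difference was 0.67 ± 0.12 (edgeR adjusted p = 0.0041), and for EIF1AD 0.62 ± 0.15 (edgeR adjusted p = 0.015). EIF4G1, at 866 and 874 CPM in KMS11 in ethanol and 994 and 834 CPM in fluvastatin, had a difference of 0.60 ± 0.14 (edgeR adjusted p = 0.014). With the GC trend removed, 13 differences were positive and 3 negative, beside 17.6% and 15.8% of all genes, but EIF3B (0.40, edgeR adjusted p = 0.066) and EIF4G1 (0.24, edgeR adjusted p = 0.11) did not pass, and the KMS11 estimate of EIF5A went from 0.24 to -0.01. On log2(TPM + 1), limma called EIF1 and EIF4E3 alone, and without KMS11 ethanol replicate 1, edgeR called EIF3B, EIF4E3 and EIF5A alone. The EIF1 and EIF4G1 calls were also lost without KMS11 ethanol replicate 2 (edgeR adjusted p = 0.052 and 0.055), and those of EIF1AD and EIF4G1 without H929 fluvastatin replicate 2 (0.068 and 0.053).

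Before treatment the lines differed in 29 of the 37 genes, with 17 higher and 12 lower in KMS11, beside 35.6% of all genes tested called higher and 36.4% called lower. These values share the ethanol libraries with the responses above. On log2(TPM + 1), where the median over all genes tested was 0.46 instead of -0.02, limma called 23 higher and 4 lower, beside 56.0% and 18.5% of all genes. The directions of EIF3L, EIF4G3 and EIF6, each called lower in KMS11 on TMM-scaled counts, turned on that scale, and EIF6 also turned with the GC trend removed.

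EIF4A1 was lower in KMS11, with a log2 difference of -1.73 ± 0.09 (edgeR adjusted p = 9.7e-08), while EIF4A2 was higher by 0.94 ± 0.10 (edgeR adjusted p = 1.3e-05). Their ratio in TPM was 5.70 and 5.22 in H929 ethanol and 0.820 and 0.945 in KMS11 ethanol, so that the order of the paralogs was opposite in the lines. In fluvastatin it was 4.16 and 4.00 in H929, and 0.886 and 0.859 in KMS11. Among the cap-binding genes, EIF4E3 was higher in KMS11 by 1.43 ± 0.12 (edgeR adjusted p = 2.7e-06) and EIF4E by 0.74 ± 0.13 (edgeR adjusted p = 0.00052). EIF4EBP2 was higher by 0.70 ± 0.09 (edgeR adjusted p = 7.9e-05).

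Within eIF3, 5 of the 13 subunits were higher in KMS11 and 6 lower, beside 35.6% and 36.4% of all genes tested. EIF3B, at 53.7 and 57.1 TPM in H929 and 243 and 244 TPM in KMS11, was higher by 1.33 ± 0.08 (log2 of counts, edgeR adjusted p = 5.0e-07). EIF3I was higher by 0.64 ± 0.09 (edgeR adjusted p = 8.8e-05). EIF3G went the other way, at 216 and 207 CPM in H929 and 66.4 and 64.7 CPM in KMS11, with a log2 difference of -1.69 ± 0.13 (edgeR adjusted p = 1.7e-06). EIF3H and EIF3E were lower too, with log2 differences of -0.82 ± 0.08 and -0.75 ± 0.10 (edgeR adjusted p = 1.4e-05 and 6.4e-05). The EIF3G value was -0.95 with the GC trend removed, and EIF3E was not called on log2(TPM + 1) (-0.25, limma adjusted p = 0.11).

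EIF5 was higher in KMS11 and EIF5A lower, with log2 differences of 1.54 ± 0.13 and -1.66 ± 0.10 (edgeR adjusted p = 4.1e-06 and 4.4e-07). EIF6 was lower (log2 -0.39 ± 0.14, edgeR adjusted p = 0.034), with the turn named above, and was not called without KMS11 ethanol replicate 1 (0.21) or H929 ethanol replicate 1 (0.15). EIF2D, at 43.7 and 37.3 CPM in H929 and 127 and 140.1 CPM in KMS11, was higher by 1.72 ± 0.12 (edgeR adjusted p = 8.2e-07), and EIF2S3 by 0.40 ± 0.10 (edgeR adjusted p = 0.0038), which became 0.06 and was not called with the GC trend removed. The eIF1 genes EIF1B, EIF1AX and EIF1 were higher by 0.92 ± 0.15, 0.68 ± 0.15 and 0.41 ± 0.08 (edgeR adjusted p = 0.00035, 0.0021 and 0.00099).

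A list of 42 other translation genes, of which 41 were tested, gives the setting of the pathway. Across both lines 1 rose and 5 fell, beside 6.5% and 3.93% of all genes tested, with a median log2 fold change of -0.07. Within H929 5 rose and 8 fell, beside 22.7% and 19.3% of all genes. In KMS11 none passed. EIF2S1, the eIF2 alpha subunit that stress kinases phosphorylate, fell across both lines by 0.42 ± 0.11 (edgeR adjusted p = 0.046). The beta and gamma subunits did not pass, and unequal change among the 3 was not tested. EIF2B3 and EIF2B5, subunits of the exchange factor that reloads eIF2 with GTP, EEF1E1, a component of the multisynthetase complex, and ABCE1, which recycles ribosomes, fell by 0.58, 0.38, 0.64 and 0.50. EIF4EBP1, the paralog of EIF4EBP2, did not pass with treatment (0.27 ± 0.12, edgeR adjusted p = 0.14).

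PDCD4, an inhibitor of eIF4A, stood at 19.2 and 17.5 CPM in H929 in ethanol and at 50.6 and 53.1 CPM in fluvastatin, a rise of 1.5 ± 0.13 (edgeR adjusted p = 3.0e-05). In KMS11 it stood at 44.3 and 35.4 CPM against 32.1 and 33.4 CPM, and the responses differed by -1.78 ± 0.18 (edgeR adjusted p = 0.00036). PAIP2, which holds poly(A)-binding protein back, rose by 0.56 ± 0.10 in H929 (edgeR adjusted p = 0.0012), with a difference of -0.50 ± 0.13. EEF1A2, a tissue-specific elongation factor, rose in H929 from 18 and 17 counts to 79 and 80 counts (log2 2.37 ± 0.38, edgeR adjusted p = 0.00081) and was the 1 gene called higher across both lines, while in KMS11 it had 1 and 0 counts in ethanol and 1 and 0 in fluvastatin. DOHH, which completes the hypusine of eIF5A, had a difference of 1.81 ± 0.51 (edgeR adjusted p = 0.030), at 11.3 and 8.72 CPM against 6.72 and 3.83 CPM in H929 and 2.82 and 2.27 CPM against 6.39 and 3.08 CPM in KMS11.

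In ethanol, 10 of the 41 were higher and 16 lower in KMS11, beside 35.6% and 36.4% of all genes tested. EIF4EBP1 was at 69.9 and 58.6 CPM in H929 and at 9.58 and 11.5 CPM in KMS11, with a log2 difference of -2.61 ± 0.15 (edgeR adjusted p = 2.9e-07), opposite in sign to EIF4EBP2. EEF2, the translocase of elongation, was lower (log2 -2.27 ± 0.18, edgeR adjusted p = 2.0e-06), and PDCD4, GSPT1 (a release factor) and EIF2B5 were higher by 1.12, 0.86 and 0.82.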

How the data were processed

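Per the labels and the study's methods, the libraries were stranded and built from total RNA without ribosomal RNA. The authors mapped read pairs with STAR 2.5.2b (GRCh38) and quantified genes with RSEM 1.3.0 on GENCODE release 26. They deposited, for each library, expected counts (not normalized), TPM (scaled by effective length to the same sum in every library) and FPKM, which was not used here.

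Gene names were taken from GENCODE release 44 (57392 of 58219 identifiers found). The 37 genes, the gene lists and the tests were chosen with earlier results of these data known. After rounding of the expected counts, edgeR 4.0.16 (R 4.3.3) was used: filterByExpr (minimum count 10, minimum total 15), TMM scaling and quasi-likelihood testing. Benjamini-Hochberg adjustment covered the 13129 protein-coding genes tested, with a threshold of 0.05. The fit across both lines had terms for line and treatment, and the other comparisons came from 1 fit of 4 group means, so that all groups share 1 estimate of the spread. A standard error is the absolute log2 fold change over the root of F.

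DESeq2 1.42.0, limma 3.58.1 on log2(TPM + 1) for genes at 1 TPM or more in 2 libraries, other scalings and filters, smooth GC and length trends (5 spline degrees of freedom), a replicate block and leaving out each library were tried as alternatives. Replicates differed by more than counting error in each group (chi-square per degree of freedom 9.58 to 36.2), so their spread and not the depth limits precision. Whether equal replicate numbers mark a shared culture day is not given in the sources used here. Values in every library are given for the genes past the threshold across both lines and for up to 5 genes with the largest change in each factor group and comparison, and other genes are named to complete a group. Of the other translation genes, EIF2S1, EIF4EBP1 and up to 3 past the threshold in each direction are named.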

Additional observations from a re-analysis of the deposited data

Results flagged for a closer look

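For 6 of the 37 initiation factors KMS11 and H929 responded to fluvastatin unequally by a test of the difference itself (KMS11 minus H929, log2, edgeR). Of these differences, 4 were positive and 2 negative, beside 11.7% and 11.5% of all genes tested. The difference was 0.84 for EIF5A, with -0.60 in H929 and 0.24 in KMS11, and -1.07 for EIF4E3, with 0.89 and -0.19. It was 0.675 for EIF3B, with -0.90 and -0.23, and 0.60 for EIF4G1, with -0.53 and 0.07. For EIF1AD it was 0.62, with -0.65 and -0.03, and for EIF1 it was -0.55, with a rise of 0.88 in H929 and 0.33 in KMS11. Over the 37 genes the difference had a Pearson correlation of 0.60 with the GC content of the transcripts. The part of GC content in the 6 results was not tested beyond the fit with the GC trend removed. In that fit EIF3B and EIF4G1 did not pass. On log2(TPM + 1), limma called EIF1 and EIF4E3 alone.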

How the results depend on the processing

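The number of the 37 genes called across both lines was 6, and became 11 with DESeq2, 11 with limma on log2(TPM + 1), 22 with the GC trend removed, 18 with GC and length trends removed and 0 without a term for the line. Leaving out 1 library gave 0 to 9 across both lines, 13 to 21 in H929, 0 to 7 in KMS11, 3 to 9 for the difference and 25 to 29 in ethanol. Within H929 the count was 18, and 28 with the GC trend or with both trends removed. Within KMS11 it was 0, and 6 with DESeq2, 1 with library size scaling, 13 with the GC trend and 10 with both trends removed. For the difference it was 6, and 2 with limma, 16 with the GC trend and 17 with both trends removed. Other scalings, no filter and all annotated genes kept the counts within 1.5 times, and the cause of the changes was not tested. Calls over all genes tested moved as well, also when 1 library was left out. Across both lines they went from 854 higher and 516 lower to 1322 and 1234 with DESeq2. On log2(TPM + 1), limma called 393 higher and 973 lower of 10880 genes. Across both lines they were 1468 and 1703 with the GC trend removed, and 1433 and 1653 with both trends removed. Without a term for the line they were 4 and 0. In KMS11 they went from 339 and 70 to 842 and 738 with the GC trend removed.

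Deviations from the group means correlated by 0.774 between same-numbered libraries in H929 and by -0.0782 in KMS11, so that the numbers go with a shared deviation in H929 and not in KMS11, and the pairing was not taken as given. With the replicate block, the counts were 0 across both lines, 21 in H929, 10 in KMS11 and 11 for the difference. Over all genes tested, the block called 143 higher and 15 lower across both lines and 3382 and 3044 in H929. It called 1161 and 476 in KMS11, and 2252 and 1975 for the difference.

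Of 980 values of named genes under alternatives, 885 kept direction and side of the threshold, 90 no longer passed, and 5 turned, all for KMS11 minus H929 in ethanol: EIF3L (0.062), EIF4G3 (0.12) and EIF6 (0.23) on log2(TPM + 1), and EIF6 (0.36 and 0.30) with the GC trend and with both trends removed. With 2 replicates per group the spread rests on estimates shared over genes, and it exceeded counting error in each group.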

Other observations

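mRNAs with a terminal oligopyrimidine tract (TOP mRNAs) are translated under control of mTORC1. Of 11 TOP mRNAs listed from general knowledge (5 of them initiation factors, namely EIF3E, EIF3F, EIF3H, EIF4A2 and EIF4B), 10 were lower in KMS11 than in H929 in ethanol and EIF4A2 was higher, beside 36.4% of all genes tested called lower and 35.6% called higher. The median log2 difference was -0.77, beside -0.02 over all genes. On log2(TPM + 1) limma called 4 lower and 1 higher, beside 18.5% and 56.0% of all genes, with a median of -0.24 beside 0.46 over all genes. With fluvastatin none of the 11 passed across both lines, within H929 or within KMS11 in edgeR with TMM scaling alone. The medians were -0.09, -0.13 and -0.10. With the GC trend removed, 3, 5 and 2 were called lower, beside 13.0%, 28.6% and 5.62% of all genes tested. DESeq2 called 1 lower across both lines and 2 in KMS11, beside 9.4% and 2.05% of all genes. With the replicate block, edgeR called 2 lower in H929, and 1 higher and 2 lower in KMS11.

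The responses of the 37 genes in H929 and KMS11, which share no libraries, gave Pearson's r of 0.25 and Spearman's rho of 0.15 over genes, as a description. EIF4G1 over EIF4G3 in TPM was 9.90 and 9.94 in H929 ethanol against 8.07 and 8.72 in fluvastatin, and 21.4 and 21.8 against 22.6 and 19.0 in KMS11.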
